A study of Homo sapiens with 2 samples.

Results

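The genes described here are 43 genes of DNA replication and mitosis, of 25940 gene symbols on the array, measured in GC cells after SET7/9 knockdown. They were chosen by name, as every gene probe of the array that carries one of the 43 symbols, and comprise 23 replication genes and 20 mitosis genes. Between them they had 54 probes, and 10 genes had more than 1. MKN74 and MKN45, both established gastric cancer cell lines, were transfected by electroporation with SET7/9 siRNA or negative control siRNA at a final concentration of 50 nM, and total RNA was taken after 48 hrs. Each cell line had 1 two-colour array, on which RNA from the SET7/9 siRNA cells carried Cy5 and RNA from the negative control siRNA cells carried Cy3. SET7/9 is a lysine methyltransferase that acts on histone H3 and on other proteins, and its gene is SETD7. The control cells therefore had the same electroporation and an siRNA of their own, and every ratio below compares a single transfection with another. A culture effect and the effect of the knockdown cannot be told apart with 1 array per cell line, the dyes were not swapped, and no test within a cell line was possible.

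Cells copy their DNA in S phase and separate the copies in mitosis. In late M and G1 phase the origin recognition complex (ORC), CDC6 and CDT1 load the MCM2 to MCM7 helicase onto DNA. In S phase CDC45, the GINS complex and MCM10 activate it, and the sliding clamp PCNA with its loader, replication factor C (RFC), holds the polymerases at the fork. Cyclin A, cyclin B and CDK1 then drive entry into mitosis, the PLK1 and Aurora kinases build the spindle, the BUB and TTK kinases hold the cell until every kinetochore is attached, and CDC20 with UBE2C starts the destruction of the cyclins. Genes of the first group are typically transcribed around the G1/S boundary under E2F factors, and genes of the second in G2 and M phase through the DREAM and MuvB complexes, which bind a short element, the cell cycle genes homology region (CHR), often with CCAAT boxes bound by NF-Y. The RNA levels of both groups are commonly read as a sign of how much of a culture is cycling.

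These elements were searched in the RefSeq promoters of GRCh38.p14, from 250 bases before to 50 bases after each start, on both strands. For E2F the letters searched were TTTGGCGC and TTTCGCGC. For the CHR they were TTTGAA and, as an alternative, TTCGAA. For NF-Y they were CCAAT, and matches were allowed to overlap. Promoters were found for 35 of the 43 genes, 20 of replication and 15 of mitosis. MCM4, MCM5, CCNE2, AURKA, BIRC5, TTK, UBE2C and CASC5 had no entry. The E2F letters stood in 6 of the 20 replication promoters (MCM2, MCM3, MCM6, MCM7, CDC6 and GINS1) and in 1 of the 15 mitosis promoters (CDK1), against 1.4% of the 27305 genes with a promoter. The CHR letters stood in 2 replication promoters (MCM6 and RRM1) and in 10 mitosis promoters (CCNB2, CDK1, PLK1, BUB1, BUB1B, CENPF, KIF11, TOP2A, MKI67 and CDC20), against 19.5% of all genes. CCAAT stood in 13 of the replication and 13 of the mitosis promoters, against 39.7% of all genes. Over single promoters of this length the shares were 1.15%, 16.4% and 34.6%. A match of letters is a description of the sequence and does not show that a factor binds.

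The 100 bases before the start are shown for MCM6, the clearest E2F case, and for mitosis genes in which the CHR and CCAAT letters lie close to the start. Capitals mark letters that match on either strand, so that a match on the other strand is printed as its reverse complement. In MCM6 a match to each of the E2F variants, on opposite strands, overlaps the other, beginning 90 and 86 bases before the start. The CHR letters begin 29 bases before the start in CCNB2 and PLK1, 28 in KIF11 and 47 and 29 in MKI67. The nearest CCAAT letters begin 54 bases before the start in CCNB2, 73 in PLK1, 53 in KIF11 and 24 in MKI67, where they run on from the CHR. The stretches lie at chr2:135876444-135876543 on the minus strand, chr15:59105046-59105145 on the plus strand, chr16:23678789-23678888 on the plus strand, chr10:92593030-92593129 on the plus strand and chr10:128126424-128126523 on the minus strand.
MCM6: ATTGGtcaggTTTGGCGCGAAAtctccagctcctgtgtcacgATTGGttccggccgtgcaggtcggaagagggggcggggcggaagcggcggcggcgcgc
CCNB2: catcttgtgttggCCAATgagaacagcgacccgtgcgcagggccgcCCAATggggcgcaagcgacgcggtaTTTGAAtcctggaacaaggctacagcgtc
PLK1: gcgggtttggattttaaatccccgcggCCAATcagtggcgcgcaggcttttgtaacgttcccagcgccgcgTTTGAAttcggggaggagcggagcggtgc
KIF11: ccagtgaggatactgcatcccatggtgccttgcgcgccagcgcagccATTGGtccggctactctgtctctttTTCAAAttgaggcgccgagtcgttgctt
MKI67: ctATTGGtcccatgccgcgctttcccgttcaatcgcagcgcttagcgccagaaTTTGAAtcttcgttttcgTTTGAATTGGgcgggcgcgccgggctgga

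Ahead of the ratios, the arrays were checked. SETD7 had a log2 ratio of -2.03 in MKN74 and -1.95 in MKN45 at 1 of its probes, and 0.24 and -0.23 at the other. After normexp and loess the first of these probes was at -1.36 and -0.99, a smaller reduction in both lines. All 5 epithelial markers (EPCAM, KRT8, KRT18, KRT19 and CDH1) were well above background in Cy3 in both lines. Of 15 markers of fibroblasts, leukocytes and endothelium, 4 were well above background in MKN74 and 7 in MKN45. All 43 genes were well above background in all 4 channels at their brightest probe, which stands for the gene below. The same held for 53 of the 54 probes, the exception being a dim second probe of CASC5 whose Cy3 signal was not well above background in MKN45.

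None of the 43 replication and mitosis genes was 1.5-fold higher or lower with SET7/9 siRNA in either cell line. The count was 0 higher and 0 lower in MKN74, where 3.83% of the 15989 genes kept were at least 1.5-fold higher and 1.73% at least 1.5-fold lower. It was 0 and 0 in MKN45, where 4.67% of 17544 genes were higher and 1.91% lower. These shares include genes with a dim channel. Among genes well above background in both channels, as all 43 were, 0.704% of 14487 were 1.5-fold higher and 1.44% lower in MKN74, and 0.826% of 15730 higher and 1.54% lower in MKN45, so that a count of 0 of 43 is near the share over comparable genes. The log2 ratios of the 43 genes ran from -0.24 (MCM7) to 0.32 (RRM2) in MKN74 and from -0.23 (BUB1B) to 0.22 (TYMS) in MKN45. The SD of the log2 ratio over the 43 genes was 0.11 in MKN74 and 0.11 in MKN45, and over all genes measured in both channels it was 0.22 and 0.23. The genes therefore lay in a narrower band around 0 than the array at large, and a 1.5-fold change is 0.58 on this scale. Longer lists of other genes of these processes, described below, lay in a similar band. Their SD was 0.11 in both lines for replication, and 0.13 in MKN74 and 0.14 in MKN45 for mitosis. The error the scanner software gives each of these log2 ratios was between 0.20 and 0.22, and is not a replicate SD. It was close to 0.20 for probes printed 1 time and for probes printed 10 times. Spots of the repeated probes had an SD between 0.017 and 0.089, so this error does not follow their measured spread. The ratio was larger than its error for 5 of the 43 genes in MKN74 (MCM7, CDC6, RRM2, TYMS and CENPF). In MKN45 it was larger for 4 (TYMS, CDK1, BUB1 and BUB1B). Of all genes 25.2% in MKN74 and 26.3% in MKN45 had such a ratio. Among genes well above background in both channels the shares were 23.2% and 23.5%.

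**Figure D1:**
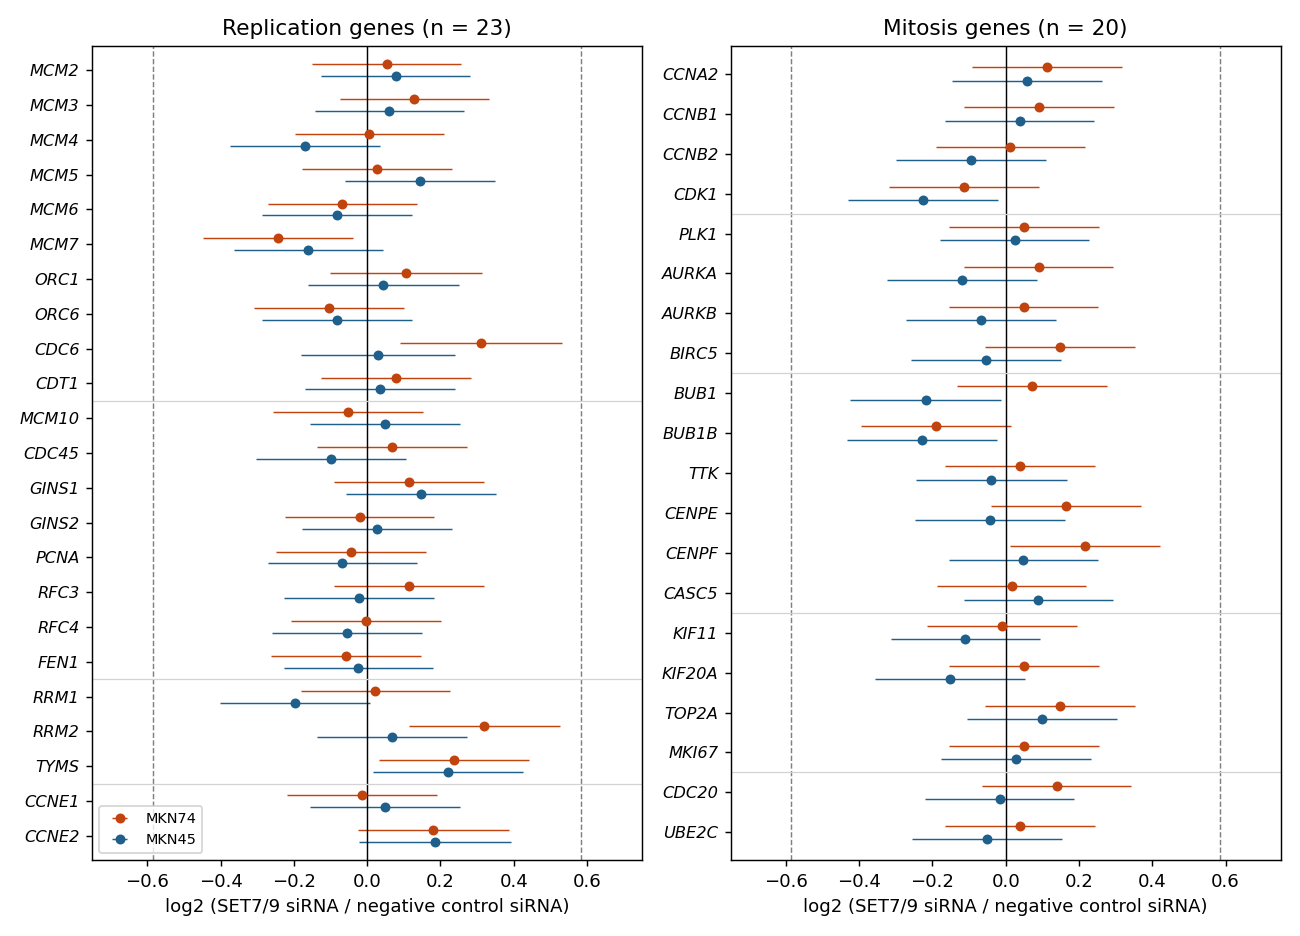
The log2 ratio of SET7/9 siRNA over negative control siRNA for each of the 23 replication and 20 mitosis genes, with MKN74 in orange and MKN45 in blue, 1 array each; bars are the scanner software's error of the ratio, dashed lines are 1.5-fold and thin lines divide the roles. Every point lies inside the dashed lines, and the mitosis genes lie more to the left in MKN45 than in MKN74.

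At a lower limit of 1.2-fold, 2 of the 43 genes were higher in MKN74 and 0 lower, and 0 were higher and 0 lower in MKN45. Over all genes, 12.5% were at least 1.2-fold higher and 9.15% lower in MKN74, and 13.9% and 8.26% in MKN45. Among genes with both channels well above background the shares were 7.7% and 8.97% in MKN74 and 8.47% and 8% in MKN45. The pair was CDC6 and RRM2. CDC6, which loads the helicase with CDT1, had a log2 ratio of 0.31 in MKN74, with an error of 0.22, and 0.030 in MKN45, with an error of 0.21. RRM2, the regulated subunit of ribonucleotide reductase, had a ratio of 0.32 in MKN74, with an error of 0.21, and of 0.069 in MKN45, with an error of 0.20. In both genes the value was clear of its error in MKN74 and within it in MKN45. With normexp and loess the limit was met in MKN74 by RRM2, TYMS, GINS1, CCNE2 and CENPF, and CDC6 was at 0.19, so that which genes pass 1.2-fold differed between these settings.

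Among the genes that load the helicase, MCM2 to MCM7, ORC1, ORC6, CDC6 and CDT1, 7 of 10 had a log2 ratio above 0 in MKN74 and 6 of 10 in MKN45. The 6 subunits of the MCM ring differed among themselves. MCM7 was the lowest replication gene in MKN74, at -0.24, and was at -0.16 in MKN45. Its second, dimmer probe was at 0.21 in MKN74 and 0.0023 in MKN45, so the probes of MCM7 disagreed by 0.46 in MKN74. MCM4 was at 0.0061 in MKN74 and -0.17 in MKN45, and MCM5 at 0.027 and 0.14. MCM3 was at 0.13 and 0.061. MCM2 and MCM6 lay between -0.083 and 0.078 in both lines. ORC6, a subunit of the origin recognition complex, was at -0.10 and -0.082, and MCM6 at -0.067 in MKN74, which made these with MCM7 the lowest replication genes there.

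The 8 genes that activate the helicase or work at the fork, MCM10, CDC45, GINS1, GINS2, PCNA, RFC3, RFC4 and FEN1, had a median log2 ratio of -0.011 in MKN74 and -0.022 in MKN45. GINS1, a subunit of the GINS complex, was the highest of them in MKN45, at 0.15, with 0.11 in MKN74. PCNA, the sliding clamp, was at -0.044 and -0.067. None of these genes had a ratio beyond its error in either line.

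The enzymes that supply nucleotides held the highest value of the 43 genes in each line, RRM2 in MKN74 and TYMS in MKN45. TYMS, thymidylate synthase, had ratios of 0.24 in MKN74 and 0.22 in MKN45, above 0 by more than its error of 0.21 in both. RRM1, the large subunit of ribonucleotide reductase, was at 0.022 in MKN74 and was the lowest replication gene in MKN45, at -0.20. Of the subunits of this enzyme RRM2 had the higher ratio in both lines. The E cyclins, which drive entry into S phase with CDK2, also differed. CCNE2 was at 0.18 in both MKN74 and MKN45, and CCNE1 at -0.013 and 0.048. A second, dimmer probe of CCNE2 was at 0.0092 in MKN74 and 0.0030 in MKN45, so its probes did not share the higher ratio.

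Among the mitosis genes, BUB1B and CDK1 were the lowest in both lines. BUB1B, which encodes the checkpoint kinase BubR1, was at -0.19 in MKN74 and, past its error of 0.21, at -0.23 in MKN45. CDK1, the kinase of mitotic entry, was at -0.11 and -0.23, with a probe printed 10 times. KIF11, a spindle motor, followed in MKN74 at -0.011, and was at -0.11 in MKN45. The highest in MKN74 were CENPF, a kinetochore protein, at 0.22, CENPE, a kinetochore motor, at 0.16, and BIRC5, the survivin subunit that works with Aurora B, at 0.15. In MKN45 these were at 0.048, -0.043 and -0.054. The highest in MKN45 were TOP2A, which untangles chromosomes, at 0.10, CASC5, a kinetochore scaffold, at 0.089, and CCNA2, cyclin A, at 0.059. MKI67, the gene of the Ki-67 proliferation marker, was at 0.050 and 0.028, and its other probes lay between -0.19 and 0.073.

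As groups, the replication genes had a median log2 ratio of 0.027 in MKN74 and 0.030 in MKN45, and the mitosis genes 0.050 in MKN74 and -0.047 in MKN45. The median over all genes was 0.0051 in MKN74 and 0.015 in MKN45. The replication median less the mitosis median was -0.023 in MKN74 and 0.077 in MKN45. It was -0.055 and 0.0087 after normexp and loess, and -0.088 and 0.027 with background-subtracted signals centred on the median, so that its size in each line was not stable. No test of it was possible. In MKN74, 17 of 20 mitosis genes had a log2 ratio above 0, and in MKN45 7 of 20 did, while the replication genes went from 14 to 13 of 23. Of all genes, 51.2% were above 0 in MKN74 and 53.2% in MKN45.

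The same mitosis genes were set against themselves in the other cell line. At the same probe, 19 of 20 mitosis genes had a lower ratio in MKN45 than in MKN74, with a median difference of -0.10 and a range of -0.29 to 0.073. CASC5 was the exception. Of the 23 replication genes 13 were lower in MKN45, with a median difference of -0.017, and of 15191 genes kept on both arrays 50.8% were, with a median of -0.0037. The share was 50.5% among the 13592 genes that were well above background in all 4 channels. The lower ratio held in every gene of the cyclin and CDK1 group (4 of 4), the kinases with BIRC5 (4 of 4), the motors with TOP2A and MKI67 (4 of 4) and the CDC20 and UBE2C pair (2 of 2), and in 5 of 6 checkpoint and kinetochore genes. The genes are transcribed together in the cell cycle and are no independent replicates, so the count describes these 2 arrays. A probe's dye bias that is the same on both arrays cancels in this difference, and a difference between the transfections does not. The difference was not tested, as each line had 1 array.

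BUB1, a spindle checkpoint kinase, had the widest gap of the mitosis genes. In MKN74 it was at 0.072 and in MKN45 at -0.22, a difference of -0.291 against a combined error of 0.289. Of the 43 genes only BUB1 had a difference past that error, by a narrow margin. After normexp and loess its difference was -0.21, within that error. How many of all genes passed their combined error was not counted, so no share over all genes stands beside this result. Among all genes measured in all 4 channels, 6% had a difference of -0.293 or lower. AURKA, Aurora kinase A, was at 0.090 and -0.12, and KIF20A, a motor of cytokinesis, at 0.050 and -0.15. Both of these differences were smaller than the combined error.

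Of the 43 genes, 11 were measured by a probe printed 10 times, which shows the precision within an array. Their spots had an SD between 0.017 and 0.089. CENPE was read at 0.14 to 0.20 over 10 spots in MKN74, with a median of 0.16, and at -0.11 to 0.021 in MKN45, with a median of -0.029. BIRC5 spots ran from 0.11 to 0.25 (median 0.14) in MKN74 and from -0.13 to -0.015 (median -0.040) in MKN45. CDK1 spots ran from -0.16 to -0.067 (median -0.12) and from -0.29 to -0.17 (median -0.22). For these 3 genes the spots of the lines did not overlap, and for the other 8 they did. The overlap was not counted over the other repeated probes of the arrays, so no share over all probes stands beside this count. KIF20A, at -0.067 to 0.15 in MKN74 and -0.28 to -0.045 in MKN45, overlapped by a few spots. Of the 8 mitosis genes with repeated probes 7 had a lower mean in MKN45, and of the 3 replication genes (ORC6, GINS2 and PCNA) 1 did. Spots of an array share the RNA and the labelling, so their spread covers neither cultures nor transfections.

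**Figure D2:**
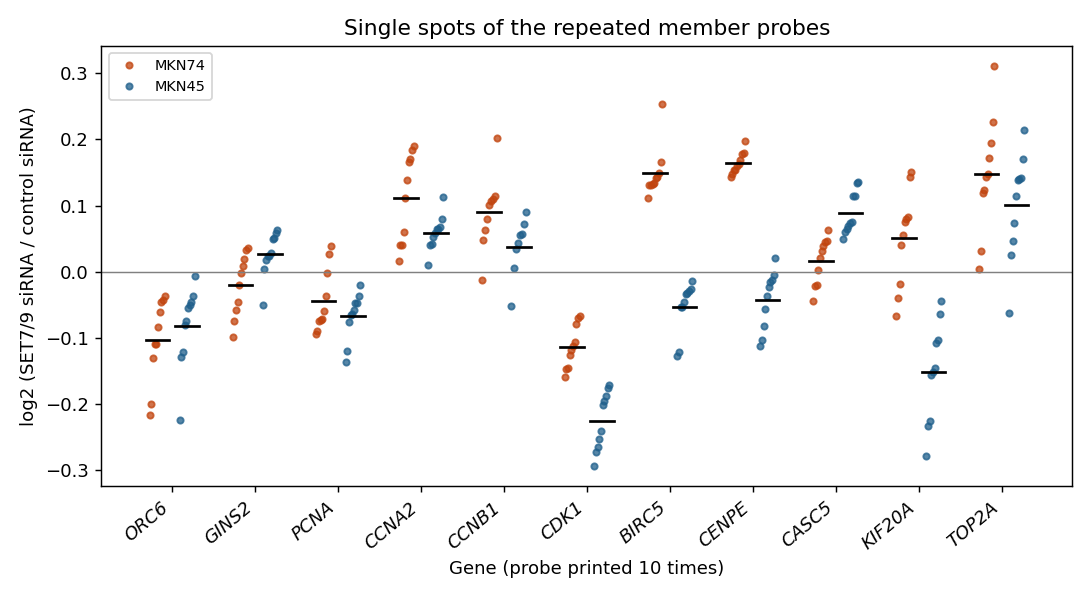
Single spots of the 11 gene probes printed 10 times, as log2 ratio of SET7/9 siRNA over negative control siRNA, with MKN74 in orange, MKN45 in blue and the mean of the spots as a black bar; outlier spots are left out and the order of points within a gene has no meaning. The spots of CDK1, BIRC5 and CENPE do not overlap between the lines.

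Further probes of the same genes gave a less even picture. Of 6 further probes of mitosis genes 4 had a lower ratio in MKN45, and of 5 further probes of replication genes 2 did. Over all genes, at their brightest probe, 50.8% did, and these few probes are not far from that share. The second probe of CENPF was at 0.11 in MKN74 and -0.098 in MKN45, that of PLK1 at -0.059 and -0.21, and that of CCNB1 at 0.094 and -0.16. Each of these was lower in MKN45, as was the brightest probe. A further MKI67 probe went the other way, from -0.13 to 0.073, and so did the dim CASC5 probe. No gene had probes more than 0.58 apart in log2 ratio on an array.

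Other genes of the same processes, from longer lists, were counted in the same way. Of 50 other replication genes 0 passed 1.5-fold in either line, and the median was 0.0083 in MKN74 and -0.023 in MKN45. Of the other mitosis genes, 57 kept in MKN74 and 58 in MKN45, 0 passed 1.5-fold, and the median was 0.087 in MKN74 and -0.029 in MKN45. Of the 57 kept on both arrays 45 (78.9%) had a lower ratio in MKN45 than in MKN74, with a median difference of -0.12, while of the other replication genes 29 of 50 (58.0%) did. The longer mitosis list lay on the same side as the 20 mitosis genes, on the same arrays. Of 21 genes kept that restrain the cycle, 0 passed 1.5-fold, with a median of 0.11 in MKN74 and 0.011 in MKN45. CDKN1A, the p21 inhibitor of cyclin-dependent kinases, was at 0.19 (error 0.21) and -0.039 (error 0.21). Of 12 genes of G1 phase 0 passed 1.5-fold, with a median of -0.12 in MKN74 and -0.00046 in MKN45. CCND1, cyclin D1, was at -0.17 (error 0.20) and 0.034 (error 0.20).

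**Figure D3:**
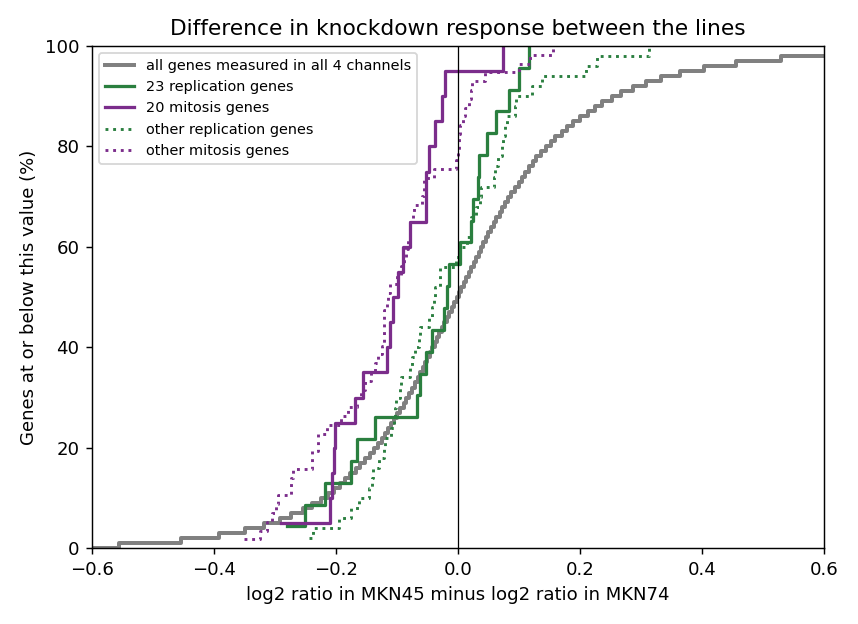
The share of genes at or below each difference in log2 ratio, MKN45 minus MKN74, for the 20 mitosis genes (solid purple), the 23 replication genes (solid green), the longer lists of other genes (dotted) and all genes measured in all 4 channels (grey). Both purple lines lie left of the grey line at the centre, with 19 of 20 mitosis genes below 0, and the green lines run close to it there.

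In a limma fit of both arrays against 0, none of the 54 probes of these genes passed a Benjamini-Hochberg adjusted p of 0.05 over the 19595 probes tested, where 0% of all probes were called higher and 0% lower. At an unadjusted p of 0.05, 3 of the 54 probes passed, against 13.1% of all probes. They were the dim CASC5 probe, TYMS and BUB1B. TYMS had a mean log2 ratio of 0.23 with a limma adjusted p of 0.37, and BUB1B one of -0.21 with a limma adjusted p of 0.38. This fit rests on 1 residual degree of freedom. After normexp and loess 4 of the 54 probes passed in limma. On this setting 1155 of the 19595 probes tested were called higher and 553 lower. The share of probes of these genes that passed was thus no higher than that of all probes. In that limma fit TYMS (adjusted p = 0.0076), GINS1 (adjusted p = 0.025) and CCNE2 (adjusted p = 0.039) were higher and BUB1B (adjusted p = 0.018) lower. The dimmer CCNE2 probe had a limma adjusted p of 0.63 there. Across the 43 genes Pearson's r between the ratios of the lines was 0.56 and Spearman's rho 0.53, and across 15205 genes both were 0.40. The arrays share the dye order, and genes are not independent.

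The level of the genes was then compared between the lines in the negative control siRNA cells, as the difference in log2 Cy3 signal of the same probe after scaling of the arrays to each other. Of the 43 genes 2 were at least 2-fold higher in MKN45 (MCM3 and MKI67) and 3 at least 2-fold lower (MCM5, TTK and RFC4). Over the 16700 genes with Cy3 well above background in at least 1 line, 22.3% were at least 2-fold higher and 21.5% lower, and over the 13637 above it in both lines 14.8% and 19.9% were. The range over the 43 genes was -1.77 (MCM5) to 1.24 (MKI67). The median was -0.14 for the replication genes, -0.35 for the mitosis genes and -0.021 for all genes. Of the mitosis genes 15 of 20 were lower in MKN45, and of the replication genes 12 of 23, against 50.7% of all genes. The remaining 38 genes differed by less than 2-fold, and no test of the differences was possible with 1 control channel each. With the signals scaled to the 75th percentile of each array the median over all genes was 0.24, the replication median -0.0092 and the mitosis median -0.34, so that the latter groups lay -0.25 and -0.58 from all genes. In these bulk samples, fewer cycling cells and less RNA per cell cannot be told apart.

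MCM5, a subunit of the helicase ring, had a log2 Cy3 signal of 12.02 in MKN74 and 10.24 in MKN45, a 3.41-fold lower level in MKN45. TTK, the spindle checkpoint kinase Mps1, was at 9.96 and 8.36, and RFC4, a subunit of the clamp loader, at 13.10 and 12.05. BUB1 followed with a difference of -0.94 and AURKA with -0.92, which completes the 5 lowest. In the Cy5 channel of the SET7/9 siRNA cells these differences were -1.66 for MCM5, -1.68 for TTK, -1.10 for RFC4, -1.23 for BUB1 and -1.13 for AURKA. The order of the lines was thus the same in the knockdown cells. The channels differ here only by the response difference, which lay between -0.29 and 0.12 over the 43 genes. The order could therefore hardly change, and Cy5 is no independent reading of it. The MCM ring thus held both extremes of the replication genes. MCM3 had a log2 Cy3 signal of 13.44 in MKN74 and 14.56 in MKN45, a difference of 1.13, while MCM2, MCM4, MCM6 and MCM7 differed by -0.40 to -0.14.

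The other genes with a higher level in MKN45 were of mixed roles. MKI67 was at 9.63 and 10.87, a difference of 1.24 in Cy3 and 1.22 in Cy5. CCNE1, cyclin E1, was higher by 0.97, while CCNE2, cyclin E2, was lower, at -0.81. TYMS was higher by 0.71 and KIF11 by 0.67. The subunits of ribonucleotide reductase were both lower in MKN45 in the Cy3 channel, with differences of -0.39 for RRM1 and -0.71 for RRM2. All 4 genes of the kinase group, PLK1, AURKA, AURKB and BIRC5, were lower in MKN45, with differences from -0.92 to -0.32, as were CDC20 and UBE2C. KIF20A and TOP2A were close to equal, at 0.072 and 0.061 in Cy3 and at -0.13 and 0.014 in Cy5. CDK1, BUB1B and CENPE were close to equal in Cy3, at -0.037, -0.054 and -0.020.

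**Figure D4:**
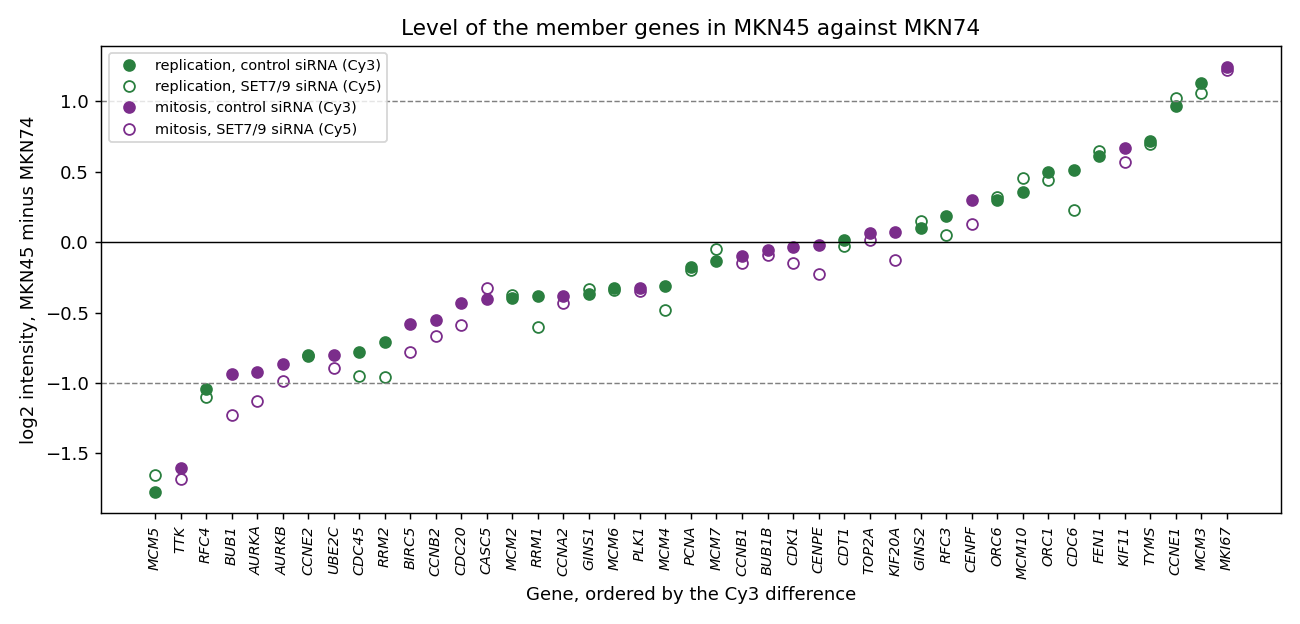
The difference in log2 signal between MKN45 and MKN74 at the brightest probe of each of the 43 genes, in the negative control siRNA cells (Cy3, filled) and in the SET7/9 siRNA cells (Cy5, open), with replication genes in green and mitosis genes in purple; dashed lines are 2-fold. MCM5, TTK and RFC4 lie below the lower line in both channels and MCM3 and MKI67 above the upper line.

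Where a gene had several probes, their positions and sequences are given for the pair of genes at the ends of this range, since the probes read different parts of the transcript. The first 30 of the 60 bases of each probe follow, in lower case and in the direction of the transcript, with GRCh37 positions. The probes of MCM5 lie at chr22:35819307-35820178, across an intron, and chr22:35813789-35813848, on the plus strand, and those of MKI67 at chr10:129907580-129907639, chr10:129913193-129913252 and chr10:129895641-129895700 on the minus strand.
MCM5, brightest probe: cagcatcatcaaggacttcaccaagcagaa
MCM5, second probe: aggctgtggagggcgagattgacctggcca
MKI67, brightest probe: ataaatgctctgcaagccctcccttaagac
MKI67, second probe: atgtgctctgggttacctggtcttagttca
MKI67, last probe: tctcaccctggtaagtacagtatttcaaga

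Both MCM5 probes were lower in MKN45, at -1.77 and -2.01. The MKI67 probes were all higher in MKN45 but differed in size, at 1.24, 0.53 and 1.42. CCNB1, cyclin B1, was the gene whose probes differed most in sign, at -0.096 at the probe printed 10 times and 1.42 at the other, so that no direction between the lines can be given for it. The probes of MCM7 gave -0.14 and 0.60 and those of RFC3 0.18 and -0.30.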

How the data were processed

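Total RNA was labelled and hybridised to 2 Agilent 4x44K v2 two-colour arrays, 1 per cell line, on the same slide and scan. The authors deposited Agilent Feature Extraction 10.7.3.1 output with the intensity of each spot on a linear scale (raw, background-subtracted and dye-normalized) and the log10 ratio of the channels, Cy5 to Cy3, with an error. The authors also deposited a rounded table of log2 ratios. These steps can move small ratios of the size described here. Control spots and outlier spots (549 in MKN74, 534 in MKN45) were left out, 0 were saturated, and repeated spots were averaged. A probe was kept if 50% or more of its spots were well above background in a channel, and the brightest kept probe stood for a gene. Cy3 levels were scaled between arrays by Aquantile in limma 3.58.1 (R 4.3.3), which also gave the fit over both arrays with Benjamini-Hochberg adjustment. The count and limma steps were tested on simulated data, with Python 3.11.15. The alternatives varied the background correction, filter, table, outlier spots and choice of probe.

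The genes, gene lists, limits and motifs were chosen with earlier results of these data known. Any gene of the 43 could be named; values in full were for the 3 highest and lowest ratios per array and group, the 5 largest Cy3 differences each way, SETD7, CDKN1A and CCND1. Which SET7/9 siRNA was hybridised is not given in the sources used here.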

Additional observations from a re-analysis of the deposited data

Results flagged for a closer look

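The mitosis genes had medians of opposite sign in the cell lines, 0.050 in MKN74 and -0.047 in MKN45 as log2 ratios, which is why they are listed here, and the difference was not tested. With normexp and loess the medians were 0.069 and -0.017. BUB1 was at 0.072 in MKN74, within its error of 0.20 and so of unclear sign, and at -0.22 in MKN45. The difference was -0.291, against a combined error of 0.289. After normexp and loess it was -0.21, within that error. How many of all genes passed their combined error was not counted. Among all genes measured in all 4 channels, 6% had a difference of -0.293 or lower. The BUB1 difference was not tested either.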

How the results depend on the processing

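Of 136 alternative values of 20 results, 124 stayed within a set limit. Many of these could hardly move. All member genes were well above background in every channel, so the filter settings gave the main values again. Keeping outlier spots also left these values unchanged, and the deposited table holds the same ratios rounded. The tally is therefore no measure of how robust the results are. For medians of log2 ratios the limit was the SD of single repeated spots (0.087 in MKN74, 0.099 in MKN45). For medians of Cy3 differences it was 0.14, from the Cy3 spot SDs of both arrays combined. For counts it was 1.5 times. These limits are wide allowances for a median over a list. Scaling to the 75th percentile moved the replication Cy3 median from -0.14 to -0.0092, which counted as within the limit. With normexp and loess the replication median in MKN45 went from 0.030 to -0.0079 and the replication less mitosis median there from 0.077 to 0.0087. With background-subtracted signals the mitosis median in MKN74 went from 0.050 to 0.13. The count of genes 1.2-fold higher in MKN74 was 5 with normexp and loess and 7 with background-subtracted signals centred on the median, against 2. Over all genes these counts were 1069 and 2301, against 2000. Under each of these settings 1 gene was 1.2-fold lower in MKN74, 1 higher in MKN45 and 1 lower in MKN45, against 0. Over all genes these counts were 651, 787 and 457 with normexp and loess. With background-subtracted signals they were 2096, 2421 and 2024. With the median of a gene's probes 1 member gene (CASC5) was 1.2-fold higher in MKN45, beside 2499 of all genes. With normexp and loess limma called 3 member probes higher and 1 lower, against 0. Of all 19595 probes it called 1155 higher and 553 lower, a share no smaller than that of the member probes. In the Cy5 channel 5 member genes were 2-fold lower in MKN45, against 3, and 21.5% of all genes were. No gene passed 1.5-fold under any of the 7 alternatives. The count of 19 of 20 mitosis genes lower in MKN45 was 19 in 6 of these and 18 with the median of probes. The settings that repeat the main values are among the 6. The count of replication genes, 13 of 23, was 13 to 17. Over all genes, normexp and loess gave 38 genes 1.5-fold higher and 38 lower in MKN74 and 27 and 15 in MKN45, and with both channels well above background 102 and 208 of 14487, and 130 and 242 of 15730. Scaling the Cy3 signal to the 75th percentile put the median of all genes at 0.24, with 3 member genes 2-fold higher and 3 lower in MKN45. Of all genes 27.6% were 2-fold higher and 17.1% lower there. The causes were not tested. No paired analysis was possible because each cell line had 1 array and replicate number. A fit without either array has no residual degrees of freedom and gave no value. Array number limits precision throughout.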
